A study of Mus musculus with 4 samples.

Results

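Microglia that carry transcripts of MHC class II genes were examined in the brains of amyloid mice. The cells were the barcodes with 2000 or more unique molecular identifiers (UMIs, each counting 1 captured RNA molecule), 500 or more genes and no more than 10% of UMIs from mitochondrial genes. A class II-positive microglial cell had a UMI of at least 2 of the 3 genes H2-Aa, H2-Ab1 and H2-Eb1, a UMI of P2ry12 or Tmem119, and a UMI of at most 1 of the 7 macrophage and monocyte genes Mrc1, Pf4, Ms4a7, Cd163, Ly6c2, Plac8 and Ccr2. Of 12883 cells, 630 met this rule and are called members here. The members were thus chosen by their class II UMIs, and their class II levels are given as a description, with no test of the levels themselves. The comparison cells, called matched cells, met the same microglial and exclusion criteria, had no UMI of any of the 3 class II genes, and were taken 5 per member from the same library at the nearest total UMI count, 3150 in all.

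The study sorted CD11b+/CD45+ myeloid cells from the left hemisphere of the brain and sequenced their RNA in droplets (10x Genomics, 3′ ends of transcripts). All mice were APP/PS1 females, labelled as 4 months old, which carry human transgenes that cause amyloid plaques. In 2 of the 4 libraries the mice were miR-155 conditional knockouts (APP/PS1:miR-155 cKO) and in 2 they were Controls, described as biological replicates. The labels give neither the Cre driver nor the deleted part of the miR-155 gene. Its host transcript Mir155hg had 1 UMI in the cells of each cKO library, against 7 in Control replicate 1 and 11 in its second replicate. The members held 0 of them in both cKO libraries, against 1 in Control replicate 1 and 3 in Control replicate 2, too few to check the deletion. With 2 libraries per genotype, p-values measure the spread between these libraries.

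Members numbered 204 and 185 in the first and second cKO library, against 115 and 126 in the Control libraries in the same order. Library totals ranged between 33130800 and 47574406 UMIs. Any pair of libraries shared 0 to 4 cell barcodes. Control replicate 1 stood apart from its label: Xist, which female cells transcribe, was at 0.00713 UMIs per 10000 there, against 17.1 in Control replicate 2 and 18.6 and 17.7 in cKO replicates 1 and 2, while Y-linked UMIs numbered 2 to 7 in each library. The deposited names give cKO replicate 2 another run code than the other 3 libraries. Results are therefore also given without each of these libraries.

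MHC class II proteins are pairs of an alpha and a beta chain that present peptides from the endosomal pathway to CD4+ T cells. H2-Aa and H2-Ab1 encode the alpha and beta chain of the mouse I-A molecule, and H2-Eb1 the beta chain of I-E. The invariant chain Cd74 guides them to endosomes, H2-DM exchanges their peptides, H2-O modulates H2-DM, and the coactivator Ciita switches the whole group on, chiefly after interferon-gamma. Resting microglia express little class II, and in amyloid models cells with these transcripts are found among the plaque-associated microglia.

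Class II genes share a promoter module, in which an X box bound by the RFX complex lies upstream of a Y box bound by NF-Y. The windows below come from RefSeq (GRCm38.p6) and hold the last 150 bases before the annotated start, 5′ to 3′ on the gene's strand. In mm10 (GENCODE annotation), H2-Aa lies at chr17:34282744-34287823 on the minus strand, and H2-Ab1 at chr17:34257689-34269419 and H2-Eb1 at chr17:34305867-34316674 on the plus strand. The windows are shown because H2-Aa and H2-Eb1 define the cells and H2-Oa is a class II gene outside the rule that was higher in them. Capitals mark the Y box sequence CTGATTGG and the X box core AGCAAC.
H2-Aa, chr17:34287824-34287973, minus strand: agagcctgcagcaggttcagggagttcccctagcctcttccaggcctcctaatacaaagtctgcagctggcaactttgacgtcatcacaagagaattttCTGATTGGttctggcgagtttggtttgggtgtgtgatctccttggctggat
H2-Eb1, chr17:34305717-34305866, plus strand: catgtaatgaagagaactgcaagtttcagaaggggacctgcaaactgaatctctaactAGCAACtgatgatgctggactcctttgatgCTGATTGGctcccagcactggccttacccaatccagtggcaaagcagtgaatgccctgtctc
H2-Oa, chr17:34092229-34092378, plus strand: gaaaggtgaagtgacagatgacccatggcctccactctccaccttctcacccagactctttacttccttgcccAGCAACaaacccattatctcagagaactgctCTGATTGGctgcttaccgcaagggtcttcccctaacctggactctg

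Counted back from the start, CTGATTGG began at position -51 in H2-Aa, -62 in H2-Eb1 and -46 in H2-Oa, and AGCAAC at -92 in H2-Eb1 and -77 in H2-Oa. Of the 25 class II and pathway genes looked up, 19 had a window of 250 bases before to 50 bases after a start. The shorter Y box core ATTGG, which lies within CTGATTGG, was in a window of 14 of them on either strand, CTGATTGG in 4 and AGCAAC in 7. Over all genes, 37.4% of 32851 such windows held ATTGG, 4.10% CTGATTGG and 14.8% AGCAAC. These shares are per window, whereas the counts are per gene in any of its windows, and some genes had several. The counts and shares therefore cannot be set directly against each other. A match is a run of letters and not evidence of binding.

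The members carried the markers of microglia. The summed level of 12 microglial genes, among them Sall1 and Csf1r and also P2ry12 and Tmem119 of the rule, was 20104 to 22096 CPM (UMI counts scaled to a common library total) in members and 23452 to 27861 CPM in matched cells, with none of the 12 at 0. The 17 border macrophage genes outside the rule summed to 263 to 309 CPM in members and 284 to 365 CPM in matched cells. Lyve1, F13a1, Cd209f, Cd209g and Cd38 of this list had 0 UMIs in the members of all 4 libraries. Others were widely detected, with a UMI of Blnk in 467 of the 630 members, Stab1 in 309, Wwp1 in 213 and Dab2 in 95. This sum therefore cannot show whether a few members were border macrophages. Dendritic cell genes (16) summed to 232 to 268 CPM in members and 262 to 350.1 CPM in matched cells, with Ccr7 at 0 in the members of every library. Of the 630 members, 457 had a UMI of Fscn1, 200 of Wdfy4 and 195 of Batf3. Zbtb46 was found in 20, Flt3 in 7, Xcr1 in 6, Cd209a in 3 and Clec9a in 2. With such widely detected genes in it, the sum cannot show whether a few members were dendritic cells. The B cell genes (11) summed to 258 to 287 CPM in members and 265 to 326 CPM in matched cells. Ms4a1 and Pax5 were at 0 in the members of every library, and Cd79a and Ebf1 were at 0 there except in cKO replicate 2. Ighm had a UMI in 545 of the 630 members and Cd79b in 147, so this sum has the same limit. T and NK cell genes (12) summed to 1.17 and 2.81 CPM in members of cKO replicates 1 and 2 and 1.81 and 4.07 CPM in those of Control replicates 1 and 2, against 0.858, 0.913, 1.25 and 1.72 CPM in matched cells. They were higher in members of each library, but from few UMIs. Klrb1c had 3 and 5 UMIs in members of cKO replicates 1 and 2 and 3 and 8 in those of Control replicates 1 and 2. Ms4a4b had 1, 3, 0 and 0 in the same order, and every other gene of this list, Cd3e, Cd3d and Cd3g included, was at 0 in members. Monocyte genes outside the rule (14, with Chil3 at 0) summed to 28.4 to 52.4 CPM in members and 20.4 to 25.9 CPM in matched cells, and the part of the monocyte and T and NK cell differences in the results below was not tested.

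Class II transcripts were sparse in most members and abundant in a few. H2-Ab1 was detected in 95.7% to 97.1% of cKO members and in 97.6% to 100% of Control members, H2-Aa in 82.6% to 84.9% and H2-Eb1 in 53.0% to 74.6%. The median member held 5 UMIs of the 3 genes in cKO replicate 1 and 6 in cKO replicate 2, against 4 in Control replicate 1 and 7 in Control replicate 2. The highest members held 126 and 337 UMIs in the cKO libraries and 179 and 297 in the Control libraries. At the edge of the rule, 32 and 34 members of cKO replicates 1 and 2 and 25 and 20 of Control replicates 1 and 2 had just 2 class II UMIs. At least 20 class II UMIs were found in 31 and 37 members of cKO replicates 1 and 2, and in 8 and 31 members of Control replicates 1 and 2. The fewest were in Control replicate 1, the library almost without Xist.

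Cd74, which the rule did not use, followed the number of class II genes seen. After each cell had been thinned to 2000 UMIs, a Cd74 UMI was found in 5.30% to 6.25% of cells with none of the 3 genes, 17.1% to 19.2% with 1, 48.5% to 55.4% with 2 and 75.6% to 92.1% with all 3. The order held in each of the 4 libraries. At full depth, members just inside the rule with 2 class II UMIs had 1.55 to 3.57 Cd74 UMIs per 10000, and the cells just outside it, with a single class II gene, 0.944 to 1.31. Cells with more class II genes seen were also deeper, with a median of 5948 to 7095 UMIs for none and 12240 to 13799 for all 3.

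**Figure D1:**
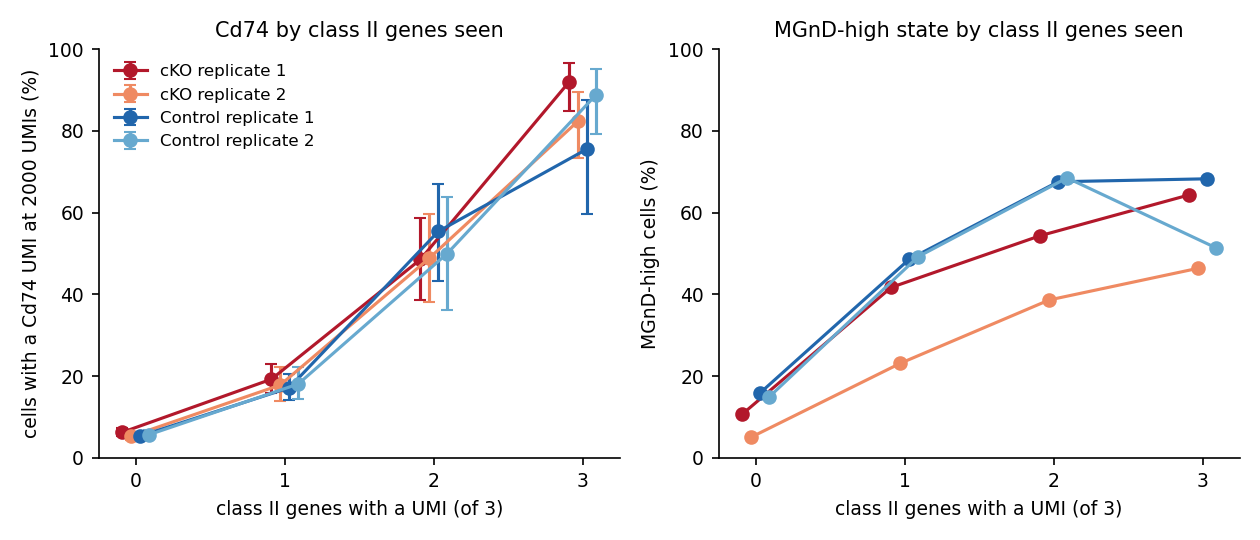
Left, share of microglia-marker cells with a Cd74 UMI at 2000 UMIs per cell against the number of class II genes with a UMI (error bars, 95% exact binomial interval, counting error only); right, share of cells with at least 3 of 12 MGnD genes. Lines are libraries. The Cd74 share is higher at each step in all 4 libraries and lies between 75.6% and 92.1% with 3 genes seen.

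Free RNA was set beside these counts. Barcodes of at most 100 UMIs gave the composition of the free RNA, and a cell made of free RNA alone would meet the class II criterion in 11.7% and 11.2% of cases at the depths of cKO replicates 1 and 2, and in 9.78% and 20.7% at those of Control replicates 1 and 2. At the free RNA's share of each library, the expected values were 0.503% and 0.622% in the cKO libraries, against 0.225% and 1.24% in the Control libraries. How much free RNA a droplet held was not measured. Cells that should lack class II were too few to serve as a check, with 3 neutrophil-like cells and 1 T or NK-like cell, none of which met the criterion. Members had 1.11 to 1.29 Cd74 UMIs per class II UMI, the free RNA 1.04 to 1.23, and the class II-positive cells that failed the other criteria, 10 to 21 per library with a median of 106.5 to 149.5 class II UMIs each, 0.667 to 0.764. H2-Eb1 made up 20.1% to 21.9% of the class II UMIs of members and 28.3% to 32.2% in those other cells. In the free RNA it made up 18.5% and 20.6% in cKO replicates 1 and 2, near the members. There it was 26.6% and 26.8% in Control replicates 1 and 2. The members held 38.6% and 51.8% of all class II UMIs in the cells of cKO replicates 1 and 2, and 19.8% and 56.2% in those of Control replicates 1 and 2.

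The share of members was higher in both cKO libraries than in both Control libraries. With 2 libraries per group, an exact permutation test of this share cannot reach a threshold of 0.05. Members made up 5.78% (95% exact binomial interval 5.04 to 6.61) and 7.01% (6.06 to 8.05) of the microglia-marker cells in cKO replicates 1 and 2, against 2.92% (2.42 to 3.50) and 4.84% (4.04 to 5.73) in Control replicates 1 and 2. On average they were 6.40% ± 0.865 of these cells in cKO mice and 3.88% ± 1.35 in Control mice (SD over 2 libraries each), 2.52 percentage points apart (exact two-sided permutation test, p = 0.333, the smallest this design allows). The intervals cover counting error only.

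The size of the difference depended on depth and on single libraries. When cells were thinned to 2000 UMIs before membership was called, the shares were 1.89% and 2.37% in cKO replicates 1 and 2, against 0.815% and 1.88% in Control replicates 1 and 2, a difference of 0.782 points, and cKO replicate 1 and Control replicate 2 were nearly level. In an alternative chosen after seeing the data, in which the microglial and exclusion criteria were kept at full depth and the class II genes alone were read after thinning, the shares were 1.96% and 2.31% in cKO, against 0.788% and 2.07% in Control, so that Control replicate 2 lay above cKO replicate 1. Cells of 2000 UMIs made of free RNA alone would meet the class II criterion in 0.709% and 0.600% of cases in the cKO libraries and in 0.516% and 1.47% in the Control libraries. Without Control replicate 1 the difference was 1.56 points, and without cKO replicate 2, which leaves the shared run code, 1.90 points. Cells of at least 16000 UMIs were members in 17.3% and 19.4% of cases in cKO replicates 1 and 2, against 6.64% and 11.8% in Control replicates 1 and 2, whereas under 4000 UMIs the shares were 1.18% and 2.86% in cKO, against 0.890% and 2.26% in Control.

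**Figure D2:**
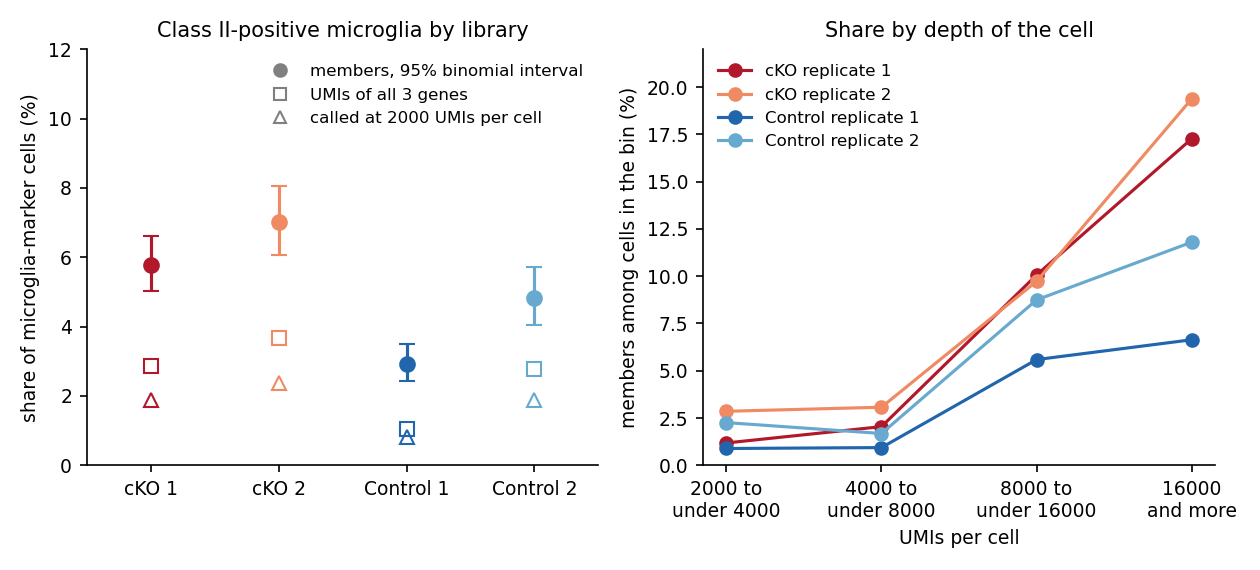
Left, members as a percentage of microglia-marker cells in each library (circles, with 95% exact binomial intervals), the share with UMIs of all 3 class II genes (squares) and the share when cells are thinned to 2000 UMIs (triangles); right, the share of members by UMIs per cell. The circles stand at 5.78% and 7.01% in the cKO libraries and at 2.92% and 4.84% in the Control libraries, and in every library the share is higher in both bins from 8000 UMIs than in both bins below.

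Class II levels within the members are given without a test, since the rule used them. The 3 genes summed to 6.64 and 9.60 UMIs per 10000 in members of cKO replicates 1 and 2, against 6.15 and 11.5 in those of Control replicates 1 and 2. The groups overlap, with both the lowest and the highest value in Control. The difference of the means was -0.698 per 10000, and its sign depended on single libraries, at 0.782 without cKO replicate 1 and 1.97 without Control replicate 2.

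What else marks these cells was tested by summing UMIs per library over members and over matched cells and fitting edgeR's quasi-likelihood model with library as a block. Median depth was 12484 and 12417 UMIs in members of cKO replicates 1 and 2 and 12034 and 12494 in members of Control replicates 1 and 2, and 10995, 9388, 12046 and 12507 in their matched cells, so the matching fell short in the cKO libraries, where deep class II-negative cells ran out. Of 11699 genes tested, 1663 (14.2%) passed an adjusted p of 0.05 (Benjamini-Hochberg), 1073 (9.17%) higher and 590 (5.04%) lower in members. With 1 matched cell per member, which brings the depths level, 1577 passed. The count was 1035 without cKO replicate 1, and the median log2 fold change of all tested genes was -0.02. The median mitochondrial share was higher in members, at 2.64% and 2.30% in cKO replicates 1 and 2, against 2.13% and 1.91% in matched cells. In Control replicates 1 and 2 it was 2.90% and 3.29%, against 2.10% and 2.76%. Median genes per cell were 3221, 3307, 3152 and 3240.5 in members of these libraries, against 3370, 3143, 3514 and 3384.5. The part of these differences in the calls was not tested. Levels below are CPM of the sums after scaling by the trimmed mean of M values (TMM), and folds are log2 of members over matched cells ± SE.

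Of the class II machinery, the invariant chain and the peptide editors were higher in members, and the shared transcription factors did not pass. The coactivator was also higher, from few UMIs. Of 20 tested class II pathway genes outside the rule (of 22 listed, where the gene March1 appears under 2 symbols), 8 rose and 1 fell. Over all tested genes 9.17% rose and 5.04% fell. The median of the list was 0.14. The invariant chain Cd74 had 867, 1067, 862 and 1373 CPM in members of cKO replicates 1 and 2 and Control replicates 1 and 2, against 46.5, 35.9, 40.2 and 50.5 CPM in their matched cells. Members stood far above matched cells in each library (log2 4.57 ± 0.09, edgeR adjusted p = 1.23e-26). Ciita, the coactivator, had 2.08, 6.36, 1.31 and 7.04 CPM in the members of those libraries and 0.447, 0.249, 0 and 0.353 CPM in the matched cells. It also rose (3.75 ± 0.51, adjusted p = 2.86e-06), though on 7, 11, 2 and 10 members with a UMI. With matched cells near 0, Ciita entered the test through the members. It was not tested where at least 10 counts were needed in every sum.

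The peptide editors moved less. H2-DMa, a chain of H2-DM, was at 351 and 303 CPM in members of cKO replicates 1 and 2 and 356 CPM in those of both Control libraries, against 245, 199, 227 and 245 CPM in matched cells. Every member sum lay above every matched sum, as for its partner H2-DMb1 (log2 0.58 ± 0.06 and 0.51 ± 0.06, adjusted p = 1.57e-08 and 2.09e-07). H2-Oa, the alpha chain of H2-O, had 81.2, 87.6, 67.4 and 88.8 CPM in members and 57.3, 45.8, 44.8 and 61.3 CPM in matched cells (0.65 ± 0.08, adjusted p = 3.03e-07). H2-Ob, its beta chain (0.37 ± 0.09), and the protease Ctss, which trims the invariant chain (0.26 ± 0.07), passed with all libraries but not without cKO replicate 1 or without cKO replicate 2. The tetraspanin Cd9 rose by 0.45 ± 0.07. The ubiquitin ligase March1, which removes class II from the cell surface, fell by 0.27 ± 0.06 and did not pass without cKO replicate 1.

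None of the X and Y box factors passed. Rfx5 was at -0.07 ± 0.16, Rfxank at -0.34 ± 0.18, Rfxap at -0.23 ± 0.10, Creb1 at 0.08 ± 0.07, Nfya at 0.10 ± 0.08, Nfyb at -0.09 ± 0.11 and Nfyc at 0.00 ± 0.15 on the log2 scale. The reductase Ifi30, the protease Lgmn, the transporter Slc15a3 and H2-DMb2 did not pass either.

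Costimulatory genes were mixed, with 3 of 10 tested higher and 1 lower, against 9.17% and 5.04% of all tested genes. Their median was 0.01. Cd83, a membrane protein of antigen-presenting cells that stabilises class II at the surface, was at 131, 145, 118 and 111 CPM in members of cKO replicates 1 and 2 and Control replicates 1 and 2, against 96.9, 87.8, 76.0 and 99.1 CPM in matched cells (0.49 ± 0.07, adjusted p = 9.05e-06). The inhibitory ligand Cd274 (PD-L1) rose by 0.87 ± 0.13. Cd40, the receptor for T cell help, rose by 1.71 ± 0.40 from few UMIs, was at 0 in members of Control replicate 1 and did not pass without cKO replicate 2. The CD28 ligands Cd80 and Cd86 were at -0.11 ± 0.18 and -0.08 ± 0.06 and did not pass. Icosl fell by 0.26 ± 0.09, a call that was kept in 1 of the 4 fits that leave out a library.

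Class I genes rose together, with 18 of 21 higher and none lower in members, against 9.17% and 5.04% of all tested genes. Their median was 0.39. The non-classical heavy chain H2-Q7 had 106, 149, 66.1 and 121 CPM in members of cKO replicates 1 and 2 and Control replicates 1 and 2, against 50.6, 65.2, 36.3 and 52.7 CPM in matched cells (1.11 ± 0.07, adjusted p = 6.32e-13). It was higher in members of every library, as were the classical heavy chains H2-D1 and H2-K1 (0.68 ± 0.07 and 0.61 ± 0.06) and H2-T23 (0.59 ± 0.06). Class I heavy chains are near-identical to each other, so reads could be split between them.

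Interferon genes followed. In the interferon-gamma list, 12 of 23 tested genes rose and 1 fell, against 9.17% and 5.04% of all tested genes. The list's median was 0.40. Cxcl9, a chemokine for activated T cells that depends on interferon-gamma, had 65.5, 235, 8.51 and 61.2 CPM in members of cKO replicates 1 and 2 and Control replicates 1 and 2, against 3.05, 1.83, 0 and 5.54 CPM in matched cells (5.17 ± 0.25, adjusted p = 1.51e-15). Few cells carried it: 16, 15, 1 and 3 members had a UMI, and a single cell held 40.9%, 31.3%, 100% and 91.2% of the members' UMIs. The GTPase gene Iigp1 was at 25.6, 72.1, 5.24 and 24.4 CPM in members and 7.45, 9.80, 4.58 and 3.42 CPM in matched cells (2.29 ± 0.20, adjusted p = 7.86e-10), lowest in Control replicate 1 among members. Gbp2 (1.23 ± 0.15) and the related GTPase Gm4951 (0.86 ± 0.11) also rose.

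Of the type I interferon list, 25 of 36 genes rose and none fell, against 9.17% and 5.04% of all tested genes. The list's median was 0.64. The antiviral membrane protein gene Ifitm3 had 244, 306, 224 and 301 CPM in members of cKO replicates 1 and 2 and Control replicates 1 and 2, against 123, 119, 119.5 and 177 CPM in matched cells (1.02 ± 0.07, adjusted p = 1.25e-11). Every member sum was above every matched sum. Ifi27l2a (0.92 ± 0.08), Lgals3bp (0.83 ± 0.07) and Ifi204, a DNA sensor gene (0.69 ± 0.07), rose as well.

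The neurodegenerative (MGnD) programme of plaque-associated microglia was the list of the 10 with the most calls. The lists differ in length, share some genes and were chosen with earlier results of these data known, so their counts are a description. All 39 tested of the 40 MGnD genes rose, against 9.17% of all tested genes, with a median of 1.15 and a range of 0.45 to 2.38. Itgax, which encodes CD11c, had 102, 86.6, 163 and 113 CPM in members of cKO replicates 1 and 2 and Control replicates 1 and 2, against 21.4, 14.7, 29.6 and 38.2 CPM in matched cells (2.19 ± 0.10, adjusted p = 4.47e-16). The secreted protein gene Spp1 had 92.0, 42.1, 109 and 86.6 CPM in those members and 19.0, 4.32, 14.5 and 27.5 CPM in the matched cells (2.38 ± 0.14, adjusted p = 1.02e-13). Members exceeded matched cells in each library for both genes. Csf1, a growth factor gene for microglia (1.39 ± 0.08), and the chemokine Ccl6 (1.22 ± 0.09) rose too, as did Ramp1, a receptor subunit for the peptide CGRP (1.07 ± 0.08).

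The homeostatic list went the other way, with 16 of 31 genes lower, against 5.04% of all tested genes. None was higher, and the median was -0.21. Ecscr was at 172, 201, 168 and 164 CPM in members of cKO replicates 1 and 2 and Control replicates 1 and 2, against 265, 303, 273 and 237 CPM in matched cells (-0.61 ± 0.06, adjusted p = 1.26e-08). The crystallin gene Crybb1 (-0.52 ± 0.06), the purinergic receptor P2ry13 (-0.46 ± 0.06) and the sialomucin Cd164 (-0.39 ± 0.06) also fell. Outside the lists, leading lower genes were the transcription factor genes Cebpd (-0.66 ± 0.07) and Sox4 (-0.50 ± 0.06), the kinase inhibitor Camk2n1 (-0.71 ± 0.07), the B cell scaffold Bank1 (-0.92 ± 0.10), the lectin receptor Clec4a2 (-0.79 ± 0.08) and the redox regulator Txnip (-0.53 ± 0.06). Ttr, a choroid plexus transcript, was also lower, at 0, 2.83, 0.655 and 0 CPM in members and 55.3, 132, 604 and 91.7 CPM in matched cells. That value rests on 1, 1, 3 and 1 matched cells, which held at least 97.5% of its UMIs there.

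Chemokine genes were among the higher ones, with 9 of 21 tested cytokine and chemokine genes up, against 9.17% of all tested genes. None was down, and the median was 0.43. Ccl5 had 31.2, 67.1, 11.8 and 48.2 CPM in members of cKO replicates 1 and 2 and Control replicates 1 and 2, against 5.51, 15.3, 6.51 and 12.8 CPM in matched cells (2.03 ± 0.14, adjusted p = 1.04e-11), but 89.9% of its UMIs in members of Control replicate 2 came from a single cell. It did not pass among members with exactly 2 class II genes. Cxcl16 (0.74 ± 0.08) and Ccl3 (0.58 ± 0.07) also rose.

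Heat-shock and immediate early genes were lower, 11 of 17 with 1 higher, against 5.04% lower and 9.17% higher of all tested genes. Their median was -0.31. Hspa1b, an inducible HSP70 gene, was at 119, 179.5, 34.0 and 41.7 CPM in members of cKO replicates 1 and 2 and Control replicates 1 and 2, against 166, 264, 103 and 58.7 CPM in matched cells (-0.65 ± 0.09, adjusted p = 5.05e-06), and Fos, Fosb and Klf2 fell by 0.41 ± 0.07, 0.39 ± 0.06 and 0.36 ± 0.07. In the cell cycle list 5 of 16 fell, against 5.04% of all tested genes, and none rose. The list's median was -0.45, but cycling cells were few (5, 1, 2 and 3 members had at least 3 of 8 mitotic genes). With 1 matched cell per member none of 13 tested cell cycle genes passed.

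**Figure D3:**
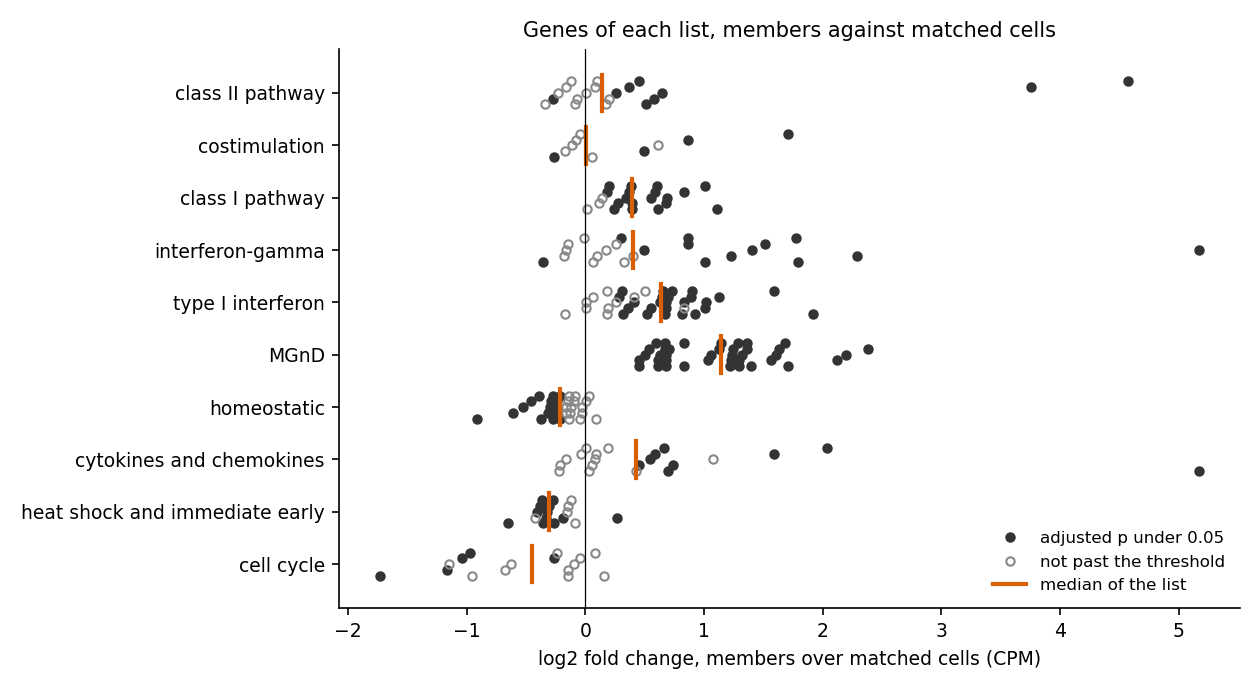
Each point is a gene, placed at its log2 fold change of members over matched cells; rows are gene lists, filled points passed an edgeR adjusted p of 0.05, and orange bars are list medians. The medians are 1.15 for MGnD, 0.64 for type I interferon, 0.39 for class I and -0.21 for homeostatic genes, against -0.02 for all tested genes.

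Calling each cell's state at 2000 UMIs gave the same picture by library. A cell was MGnD-high, interferon-high or interferon-gamma-high if it had UMIs of at least 3 of the 12 genes of that state. Among members, 59.3% and 42.7% were MGnD-high in cKO replicates 1 and 2 and 67.8% and 58.7% were so in Control replicates 1 and 2, against 19.8%, 9.30%, 27.3% and 31.3% of their matched cells. The share was higher in members in 4 of 4 libraries, by 35.2 percentage points on average (exact sign-flip permutation test, p = 0.12, the smallest that 4 libraries allow). The gap averaged 36.5 points in cKO and 34.0 in Control, a difference of 2.47 points (exact permutation test, p = 1.0).

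Interferon-high cells made up 18.1% and 16.8% of cKO members (replicates 1 and 2) and 12.2% and 19.0% of Control members, against 9.41%, 9.62%, 11.8% and 9.21% of matched cells, 6.51 points more on average (same test, exact p = 0.12). The gap was 0.348 points in Control replicate 1, and the average 8.57 points without that library. That library's gap turned to -0.870 points with 1 matched cell per member, and to -5.37 points for members with all 3 class II genes, so the higher share held in 3 of 4 libraries there (exact p = 0.25 each). Interferon-gamma-high cells were 3.43% and 7.03% of cKO members and 3.48% and 4.76% of Control members, against 1.76%, 3.14%, 0.870% and 0.635% of matched cells (3.07 points, exact p = 0.12). With all 3 class II genes this gap was -0.976 points in Control replicate 1, and with exactly 2 it was -0.370 points in Control replicate 2. Members in none of the 3 states were 32.8%, 44.3%, 26.1% and 32.5% in the same order of libraries. Membership was called at full depth but the states after thinning, so a member could lose its state genes and miss the call. These shares therefore cannot show whether class II transcripts were present outside the 3 states.

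**Figure D4:**
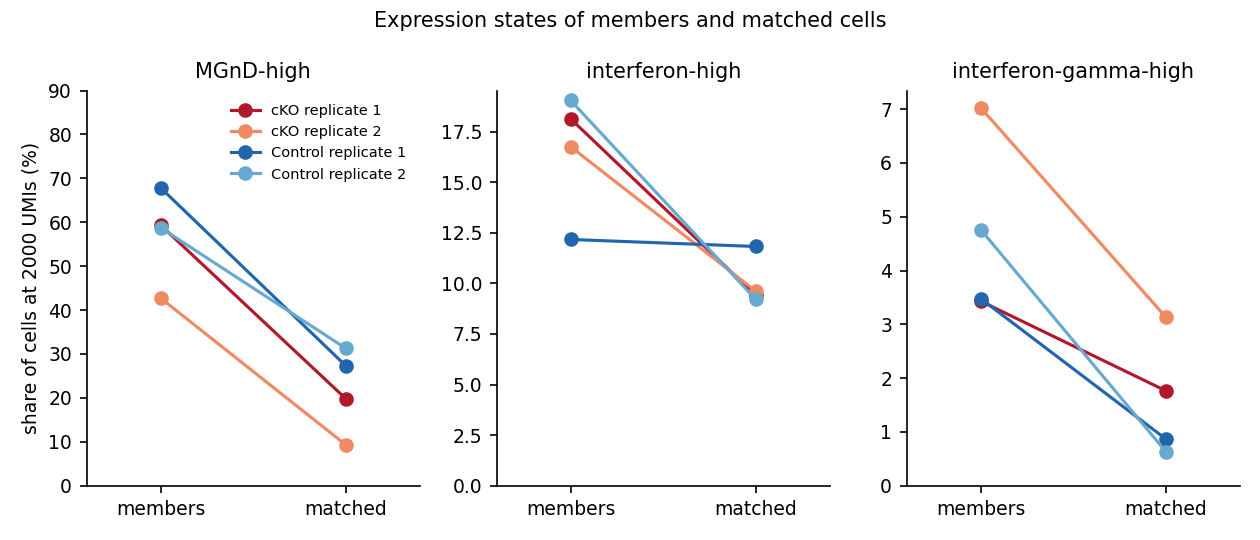
Share of cells in each of 3 expression states, called at 2000 UMIs per cell, for members and matched cells of the same library; each line is a library. MGnD-high cells make up 42.7% to 67.8% of members and 9.30% to 31.3% of matched cells, and all 4 lines slope the same way in each panel, by 0.348 points in Control replicate 1 for the interferon-high state.

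The MGnD-high state was much more frequent among members, so the gene comparison was repeated within that state, an alternative chosen after seeing the data. With 1 matched cell of the same MGnD call per member, 276 of 10295 genes passed (2.68%), 226 higher (2.20%) and 50 lower (0.486%), and 274 of them were among the 1663 with the same direction. Among MGnD-high cells alone, 79 to 121 cells per cKO library and 74 to 78 per Control library, 49 of 8584 passed (0.571%), 44 higher (0.513%) and 5 lower (0.0582%). Among members that were not MGnD-high, 341 of 9359 passed (3.64%). These fits hold fewer cells and so have less power.

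Within MGnD-high cells Cd74 remained higher by 3.57, Cxcl9 by 4.27, Iigp1 by 2.95, Ccl5 by 2.65 and Gbp2 by 1.53 on the log2 scale, and each passed. H2-DMa (0.35), H2-DMb1 (0.52), H2-Q7 (0.65) and H2-K1 (0.38) passed as well. Itgax (0.96), Spp1 (0.98) and Csf1 (0.51) were still higher, at smaller folds than against all matched cells. Of the lists, 15 of 39 MGnD genes, 6 of 21 class I genes and 3 of 34 tested type I interferon genes rose there. Over all genes tested in these cells, 0.513% rose. None of 30 homeostatic genes and none of 17 heat-shock and immediate early genes passed, where 5 of 8584 genes passed as lower. Ecscr (-0.07), Crybb1 (-0.09), P2ry13 (-0.11), Hspa1b (-0.25), Fos (-0.16), Fosb (-0.04) and Klf2 (-0.13) stayed below 0 at smaller folds. Cd164 was at 0.0078. Whether those lists are lower within MGnD-high cells cannot be told at this power. H2-Oa (0.21) and Cd83 (0.21) did not pass.

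The genotype comparison within the members asked whether the class II-positive cells of the cKO differ from those of Control. It does not ask whether a difference is particular to them, for which the interaction is given further below. Of 10000 genes tested 24 passed (0.240%), 12 higher (0.120%) and 12 lower (0.120%) in cKO, and 853 had an unadjusted p under 0.05. The count was 96, 11, 29 and 110 when cKO replicates 1 and 2 and Control replicates 1 and 2 were left out in turn, 4 by DESeq2, 39 (14 higher, 25 lower) with DESeq2's size factors and 0 when cells over 10000 UMIs were left out.

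The inducible heat-shock genes led the higher genes. Hspa1b was at 115 and 173 CPM in members of cKO replicates 1 and 2, against 32.7 and 40.5 CPM in members of Control replicates 1 and 2 (log2 1.96 ± 0.18, edgeR adjusted p = 1.02e-08), and its near-identical neighbour Hspa1a at 159 and 268 CPM in cKO, against 79.9 and 67.8 CPM in Control (1.53 ± 0.17, adjusted p = 9.51e-07). Both cKO libraries lay above both Control libraries, and both calls held with any library left out. In the matched cells Hspa1b was likewise higher in both cKO libraries, at 166 and 264 CPM, than in both Control libraries, at 103 and 58.7 CPM. There Cdkn1a, described below, had a UMI in 28.4% and 20.4% of cKO cells, against 17.9% and 17.0% of Control cells (replicates 1 and 2). All 17 heat-shock and immediate early genes had values above 0 and 3 passed, against 0.24% of all tested genes. The third was Klf2, at 0.78 ± 0.18, which did not pass without cKO replicate 2 or without Control replicate 2, and whose fold was 0.37 at its lowest with a library left out. The cell cycle inhibitor Cdkn1a was at 68.4 and 49.1 CPM in cKO and 25.2 and 31.5 CPM in Control (1.05 ± 0.19, adjusted p = 0.00474), and Ppp1r15a, a stress-response phosphatase subunit, also rose (0.65 ± 0.14) but lost its call in the same 2 fits as Klf2. Cdkn1a did not pass without cKO replicate 1.

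Cxcl9 was at 63.3 and 227 CPM in members of cKO replicates 1 and 2 and 8.18 and 59.4 CPM in those of Control replicates 1 and 2 (2.02 ± 0.38, adjusted p = 0.00668), and Iigp1 at 24.7 and 69.5 CPM in cKO and 5.03 and 23.6 CPM in Control (1.62 ± 0.36, adjusted p = 0.0355). cKO replicate 1 and Control replicate 2 were nearly level for both. Neither passed without cKO replicate 2, where they were at 0.84 and 0.72, and without cells over 10000 UMIs Cxcl9 turned to -0.15. They were the 2 called of 20 tested interferon-gamma genes, against 0.24% of all tested genes. Nfkbia, the inhibitor of NF-kB, rose (0.59 ± 0.13) but did not pass without cKO replicate 2 or without Control replicate 1.

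The cell cycle genes Hist1h1b and Mki67 were lower in cKO members and rest on few cells. Hist1h1b, a linker histone of S phase, was at 14.1 and 2.04 CPM in cKO, against 39.6 and 52.5 CPM in Control (-2.45 ± 0.32, adjusted p = 1.90e-05), and Mki67, a proliferation marker, at 7.48 and 0.341 CPM in cKO, against 14.5 and 38.9 CPM in Control (-2.70 ± 0.45, adjusted p = 0.00151). Both calls were kept with any library left out. A Hist1h1b UMI was found in 8 and 4 members of the cKO libraries and in 3 and 5 of the Control libraries.

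The fractalkine receptor Cx3cr1 was at 1927 and 2041 CPM in members of cKO replicates 1 and 2, against 3422 and 3174 CPM in those of Control replicates 1 and 2 (-0.73 ± 0.13, adjusted p = 0.00474), a call kept with any library left out. Matched cells held 31203 and 30046 Cx3cr1 UMIs in cKO replicates 1 and 2, out of 12817251 and 10954978. In Control replicates 1 and 2 they held 38833 and 33050, out of 7994934 and 8741875, so Cx3cr1 was lower in cKO there too. In members Igf1, a growth factor, was at 89.1 and 59.3 CPM in cKO and 179.9 and 98.8 CPM in Control (-0.89 ± 0.18), the lipase gene Lpl at 282 and 287 CPM in cKO and 489 and 376 CPM in Control (-0.60 ± 0.13), and the phosphate transporter Ank fell by 0.65 ± 0.14. These 3 were the MGnD genes that passed, against 0.24% of all tested genes. All 39 tested MGnD genes had values below 0, and the median was -0.38, against 0.00 for all tested genes. Fewer matched cells had UMIs of Igf1, Lpl and Ank in cKO than in Control as well (replicates 1 and 2 of each). Igf1 was in 14.3% and 4.22%, against 22.6% and 25.6%, and Lpl in 33.2% and 20.4%, against 48.0% and 49.0%. Ank was in 42.3% and 31.9%, against 54.3% and 55.4%, with the matched cells less deep in cKO. None of the 3 passed without cKO replicate 2 or without Control replicate 1. Cox6a2 (-0.83 ± 0.15) and Aplp2 (-0.66 ± 0.14) lost their calls in the same 2 fits. The neuropeptide gene Cck (-1.91 ± 0.33) was high in Control replicate 1, at 54.1 CPM, and did not pass without it.

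None of the 20 tested class II pathway genes, 21 class I genes, 36 type I interferon genes or 8 costimulatory genes passed. Over all tested genes 0.24% did. Cd74 was at 837 and 1028 CPM in members of cKO replicates 1 and 2, against 829 and 1333 CPM in those of Control replicates 1 and 2 (-0.21 ± 0.16). The groups overlap.

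**Figure D5:**
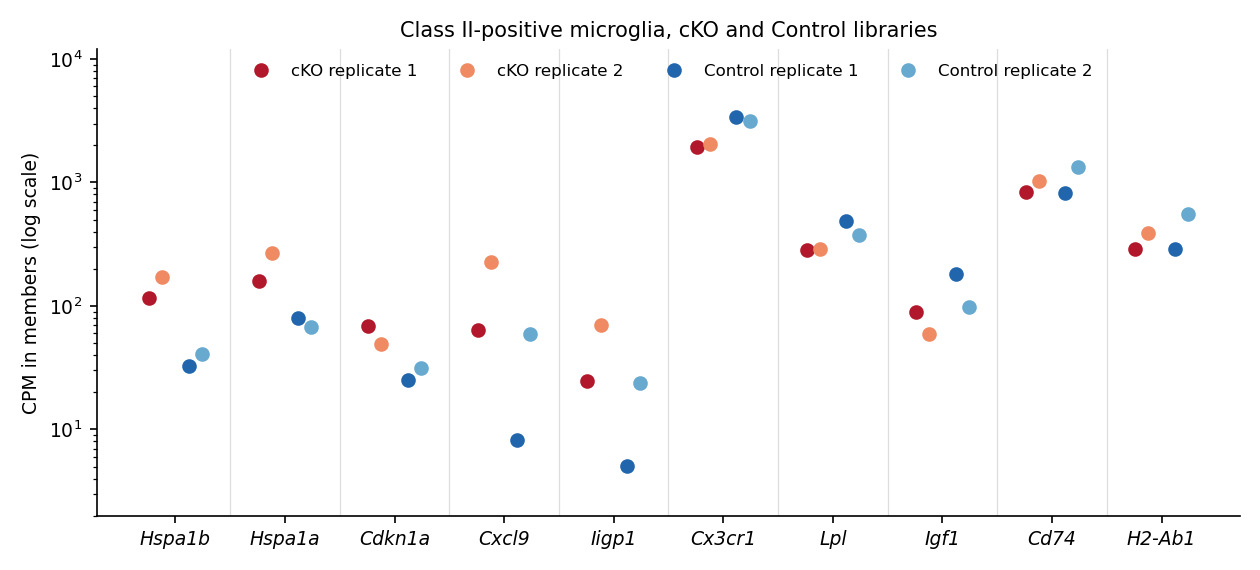
CPM in members (log axis) of genes named in the genotype comparison and of 2 class II genes; each point is a library. Hspa1b stands at 115 and 173 CPM in both cKO libraries, against 32.7 and 40.5 CPM in the Control libraries, Cx3cr1 lies the other way, and Cd74 and H2-Ab1 overlap between genotypes.

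Whether the difference between members and matched cells itself depended on genotype was tested as an interaction. Of 11699 genes 2 passed (0.0171%), and 442 had an unadjusted p under 0.05. Both are cell cycle genes and rest on few cells. Hist1h1b was at 14.6 and 2.12 CPM in members and 31.4 and 14.9 CPM in matched cells of cKO replicates 1 and 2, and at 41.2 and 54.1 CPM in members and 22.3 and 23.3 CPM in matched cells of Control replicates 1 and 2 (log2 -2.52 ± 0.27, adjusted p = 8.23e-07). Mki67 had 7.74 and 0.353 CPM in members and 41.2 and 15.4 CPM in matched cells of both cKO libraries, against 15.1 and 40.1 CPM in members and 21.4 and 22.1 CPM in matched cells of the Control libraries (-3.13 ± 0.38, adjusted p = 6.99e-06). A Mki67 UMI was found in 7 and 1 members of cKO replicates 1 and 2 and in 2 and 4 of Control replicates 1 and 2, and single cells held 95.7% and 77.0% of the members' Mki67 UMIs in Control replicates 1 and 2. The count of passing genes was 17, 3, 71 and 15 without cKO replicates 1 and 2 and Control replicates 1 and 2 in turn.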

How the data were processed

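The deposited files give raw UMI counts for every gene in every barcode, empty droplets included. The submitters' processing notes name Cell Ranger 4.0.0 and the mm10 genome. Members and gene lists were chosen with earlier results of these data known. Labels set the groups (2 cKO, 2 Control), and nothing says that equal replicate numbers share a litter or day. Cells were filtered as the report states, with a median of 6412 to 7431 UMIs per library. Doublets were scored with Scrublet (scanpy 1.11.5), whose own threshold called 0 to 3 cells per library and so was not used. Scores in the top 0.8% per 1000 cells were left out in an alternative, and 3.17% to 11.3% of members and 2.16% to 5.22% of matched cells had such scores. Counts were summed per library and cell class and tested with edgeR 4.0.16 (TMM, filterByExpr, quasi-likelihood F test, Benjamini-Hochberg at 0.05 over all genes tested) after tests on simulated data, and alternatively with DESeq2 1.42.0. SE is the log2 fold change over the square root of F. The 12 genes used by the rule stayed in the fits but are in no count. Genes were named by smallest p: 10 per direction for members (average log2 CPM of at least 4, same direction in 4 libraries), 5 per direction for genotype and interaction, up to 4 per list, and all class II pathway and costimulatory genes; 1 gene that this rule names is not reported here. Thinned cells were drawn once to 2000 UMIs (fixed seed). Alternatives changed the tool, scaling, count filter, member rule, doublets, depth, matching, block and libraries. Promoter windows are RefSeq's.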

Additional observations from a re-analysis of the deposited data

Results flagged for a closer look

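The member against matched difference of Hist1h1b differed between genotypes by -2.52 on the log2 scale (cKO minus Control) and that of Mki67 by -3.13, both by the edgeR interaction test. They were flagged because the effect of class II state differed between cKO and Control. Both values reversed among members with all 3 class II genes and when cells over 10000 UMIs were left out, Hist1h1b did not pass with 1 matched cell per member, and no more than 8 members of any library carried either transcript.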

How the results depend on the processing

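The number of genes called between members and matched cells, 1663, was 855 by DESeq2, 750 with all 3 class II genes, 1104 with exactly 2, 733 with cells thinned to 2000 UMIs, 878 without cells over 10000 UMIs, 259 without the library block, and 1035 to 1797 with a library left out. In 3 settings chosen after seeing the data it was 276 when matched on the MGnD call, 49 in MGnD-high cells and 341 in other cells.

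The genotype count in members, 24, was 4 by DESeq2, 39 with DESeq2 size factors, 89 with no filter on low counts, 41 with at least 10 counts in every sum, 3 with all 3 class II genes, 240 with exactly 2, 4 with no excluded marker, 7 without high doublet scores, 14 after thinning, 0 without cells over 10000 UMIs (212 with an unadjusted p under 0.05), and 11 to 110 with a library left out. With the replicate number as a block it was 265 (89 higher, 176 lower). Deviations from the group means correlated at 0.0705 for same-numbered libraries and at -0.0705 for the others. With 2 libraries per group these values mirror each other, so they cannot tell whether the numbers pair the libraries.

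The interaction count, 2, was 17 with no filter, 0 with at least 10 counts (308 with an unadjusted p under 0.05), 1 with all 3 class II genes, 4 with exactly 2, 0 after thinning (383), 4 with 1 matched cell per member and 3 to 71 with a library left out.

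Among single genes, values reversed to 0.0078 for Cd164 and -0.0010 for Ccl3 in MGnD-high cells, to 0.20 for Top2a and 0.049 for Hmgb2 in other cells and, without cells over 10000 UMIs, to 0.041 for Ube2c, to -0.15 for Cxcl9 between genotypes, and to 0.40 for Hist1h1b and 6.62 for Mki67 in the interaction, which were 2.53 and 1.37 with all 3 class II genes. The class II level difference ranged between -3.37 and 1.97 with a library left out. The causes were not tested. Of 53 genes called between members and matched cells, 17 kept direction and call in every alternative, and of 17 called between genotypes, 0. At 2 libraries per group, permutation tests cannot go under p = 0.333, and a median of 4 to 7 class II UMIs per member limits how surely a single cell is classed.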
